A study of Homo sapiens with 4 samples.

Results

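The snaR transcripts (symbols SNAR-A to SNAR-I) and the other short noncoding RNAs of LCC9 breast cancer cells were followed after 24 h with the compound A7 or with vehicle. Members were chosen by symbol alone: every symbol that starts with SNAR-, RN7S, RNY, VTRNA or RNU, or that equals RPPH1 or RMRP. This gave 56 of 23605 symbols, of which 20 were SNAR members and 36 belonged to other families. The latter comprised 20 U6 symbols, 4 vault RNAs, 3 U5 symbols, 2 Y RNAs, and 1 each for U11, U12, U4atac, U6atac, RNU86, RMRP and RPPH1. No symbol of the tables matched the RN7S families, which hold 7SK and 7SL.

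LCC9 is a human breast cancer line resistant to tamoxifen and, per the labels, positive for wild-type estrogen receptor alpha. Both groups were kept in IMEM without phenol red, with 5% charcoal-stripped serum, and therefore with little estrogen. The vehicle group (2 libraries) received DMSO, and the A7 group (2 libraries) received A7, which the labels describe as a BRCA1-mimetic compound. Its catalogue number differs between the titles of the samples and of the series, and it is called by its code name here. Whether the libraries of a group stem from different cultures is not stated in the labels. Every p-value below thus speaks for these libraries only, and the scatter against which a difference is set may be technical. All values are from 1 cell line in bulk, where fewer cells with a transcript and less of it per cell cannot be told apart.

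SnaR RNAs are transcripts of RNA polymerase III that fold into double-stranded stems and associate with protein complexes that hold the product of ILF2. Their genes arose in the lineage of African great apes from an Alu-related sequence, stand mostly in tandem arrays of near-identical copies, and are known for expression in testis, parts of the brain and immortalised cell lines. The other families include RNA polymerase III products of housekeeping function: RMRP is the RNA of RNase MRP, which cuts ribosomal RNA precursors, and RPPH1 is the RNA of RNase P, which trims the 5′ leader of tRNA precursors. U12 and U4atac RNA belong to the minor spliceosome, which removes a rare class of introns, Y RNAs bind the Ro60 protein, and vault RNAs bind the vault particle.

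Expression was deposited as FPKM (mapped fragments divided by transcript length and by the library's mapped fragments), and values below are scaled FPKM, divided by a factor per library between 0.990 and 1.02. Between 8763 and 9102 symbols per library reached an FPKM of 1. From the steps of low values, depth relative to the first vehicle library was estimated as 1.03 in the second, and as 1.82 and 1.40 in the A7 libraries, which were thus the deeper ones. All 8 markers of luminal breast epithelium (among them ESR1, GATA3 and KRT8) had a mean FPKM of at least 1, and the 4 leukocyte markers were listed at 0 throughout. The 6 fibroblast markers summed to 0.416 and 0.421 scaled FPKM with vehicle and to 11.0 and 0.963 with A7, of which DCN made up 8.40 in A7 replicate 1. The part of these differences in the results below was not tested.

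The SNAR family was among the most abundant entries of every library on the FPKM scale, and it was lower in both A7 libraries than in both vehicle libraries. The summed scaled FPKM of its 20 members came to 226016 and 253899 with vehicle and to 188718 and 180705 with A7. The A7 libraries were close to each other and lay below the vehicle range. The means were 239957 ± 19716 with vehicle and 184711 ± 5666 with A7 (SD, n = 2 each), a 1.30-fold lower sum with A7 and a log2 difference of -0.38. The exact two-sided permutation test gave p = 0.333, which is the smallest value that 2 against 2 libraries allow. With each library rescaled to the same sum (TPM), the log2 difference was -0.15. That rescaling shifted all tested genes, whose median became 0.17.

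As a share of a library's summed FPKM, the SNAR family held 17.1% and 17.5% with vehicle and 15.7% and 15.4% with A7. The mean share was 17.3% ± 0.257 with vehicle and 15.6% ± 0.187 with A7, a difference of -1.71 percentage points, with no overlap between the groups. No scaling factor enters these shares. Once the 10 most abundant symbols of all, among them 4 SNAR members, were left out of both sums, its share was 3.45% and 3.11% with vehicle, against 2.78% and 2.67% with A7.

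**Figure D1:**
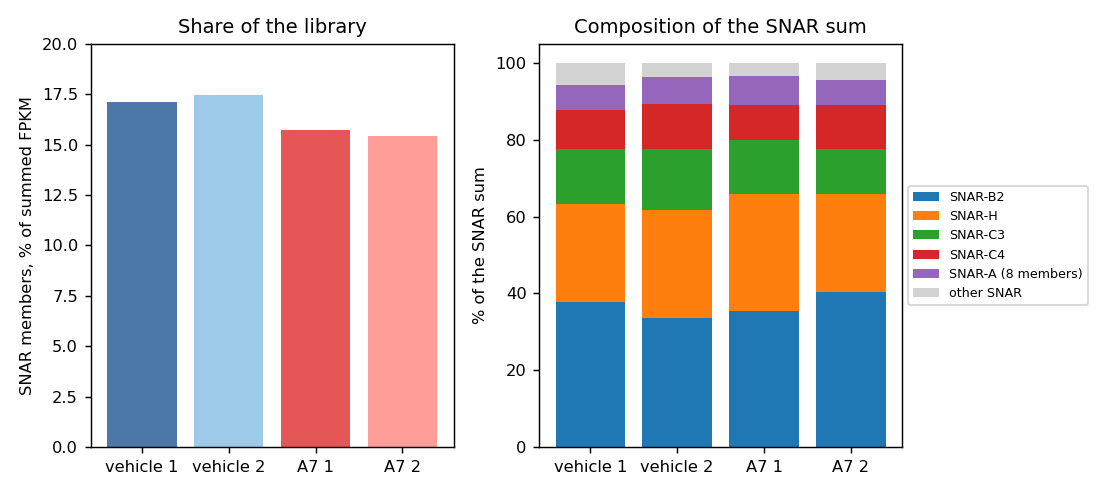
Left, percent of each library's summed FPKM held by the SNAR family. Right, composition of the SNAR sum in percent, with SNAR-B2, SNAR-H, SNAR-C3 and SNAR-C4 singly, SNAR-A as a block and the other members together. Vehicle replicates 1 and 2 and A7 replicates 1 and 2 are on the horizontal axis. On the left the A7 bars end at 15.7% and 15.4%, below the vehicle bars at 17.1% and 17.5%. On the right SNAR-B2 and SNAR-H take most of every bar.

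These FPKM rested on few fragments. The smallest value of a SNAR member with values of its own, SNAR-F in A7 replicate 1, corresponded to 304 FPKM at the depth of vehicle replicate 1. SNAR-F in the other libraries lay at 2.01, 2.15 and 1.98 times that value, close to whole multiples of it. Other low members were further from whole multiples, with SNAR-I at 5.44 in vehicle replicate 2 and 4.42 in A7 replicate 1 and SNAR-G1 at 7.34 in vehicle replicate 1, so the fragment numbers are rough. If the step of SNAR-F is 1 fragment, the whole family held an estimated 745 and 874 fragments with vehicle, against 1119 and 849 with A7, or between 0.0271% and 0.0378% of the estimated fragments of a library. Per unit of relative depth, which returns the unscaled FPKM by construction, the A7-to-vehicle ratio was 0.767 (95% exact binomial interval 0.718 to 0.819, which covers counting error only and not the spread between libraries).

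Taking the smallest value above 0 of each RNA as 1 fragment, the FPKM worth of a fragment rose steeply as the transcripts became shorter. By length alone, 1 fragment of the 123-nt SNAR-F would be worth 3.63 FPKM in vehicle replicate 1, and the step seen was 83.7 times that. The smallest value above 0 was 46.1 times the worth by length for the 127-nt RNU4ATAC and 22.7 times for the 150-nt RNU12. It was 4.03 times for the 268-nt RMRP and 2.81 times for the 333-nt RPPH1. On this reading, high FPKM of the SNAR members correspond to small numbers of fragments, and their levels were not compared with levels of longer transcripts.

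**Figure D2:**
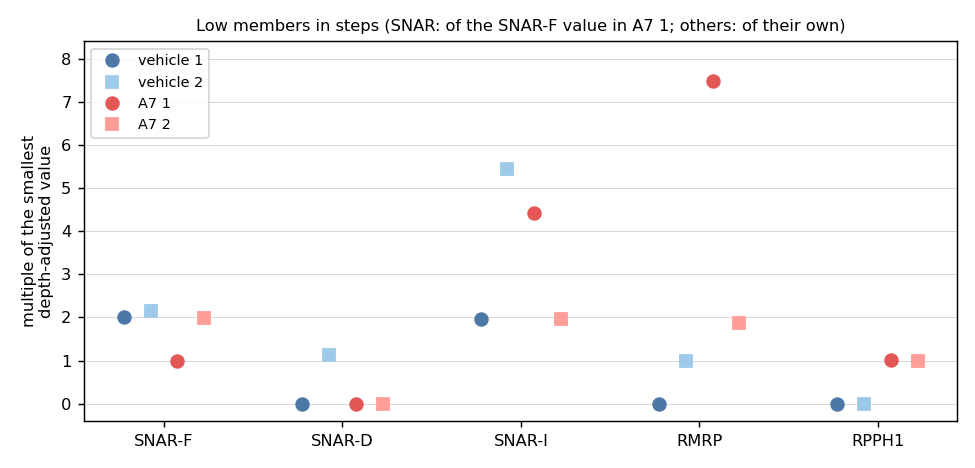
Depth-adjusted FPKM of low SNAR members and other short RNAs by library, as multiples of the value taken as 1 fragment. SNAR-F lies near 1 or 2 in all 4 libraries, SNAR-I lies between whole multiples at 5.44 and 4.42 in 2 of them, RPPH1 lies at 1 in both A7 libraries, and RMRP reaches 7.49 in A7 replicate 1.

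By the RefSeq gene table of assembly GRCh38.p14, used for names, lengths and gene order only because the deposited values were made on GRCh37, the 20 SNAR members are 119 to 128 nt long. Of them, 18 lie on chromosome 19, SNAR-H on chromosome 2 and SNAR-I on chromosome 3. The chromosome 19 genes include a run of 10 adjacent SNAR genes, 8 of which are in the tables, and a separate run of 12 that ends with SNAR-B2 and SNAR-D, of which 6 are in the tables. SNAR-E, SNAR-F, SNAR-G1 and SNAR-G2 stand singly among other genes. SNAR-G1 lies next to CGB1 and SNAR-G2 next to CGB2, genes of the chorionic gonadotropin beta cluster, and both CGB genes were listed at 0 in every library. AP2S1, a subunit of the AP-2 endocytic adaptor and the neighbour of SNAR-E, had 98.0 and 71.4 scaled FPKM with vehicle and 82.9 and 66.2 with A7. Its groups overlapped, unlike those of SNAR-E below.

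Of the 20 SNAR members, 19 were above 0 in some library, 16 were above 0 in all 4, and SNAR-G2 was listed at 0 throughout. In all, 3 sets of members had identical values to the last digit in every library: SNAR-A11, SNAR-A14, SNAR-A3, SNAR-A5 and SNAR-A9; SNAR-C1 and SNAR-C2; and SNAR-A12 and SNAR-A13. SNAR-A3 lies in the first run of SNAR genes and the other members of its set in the second, so the identical values span both. The copies cannot be told apart from these values and are described once per set. How reads that map to several copies were assigned is not given in the sources used here, so the split among near-identical copies is uncertain. Whether such reads were divided, counted once per copy or dropped would also bear on the family sum, which was not tested.

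SNAR-B2, SNAR-H, SNAR-C3 and SNAR-C4 together made up between 87.8% and 89.3% of the SNAR sum in every library. SNAR-B2 had 85283 and 85098 scaled FPKM with vehicle and 66953 and 72734 with A7. It ranked 2 among all symbols in each library, and its vehicle libraries differed from each other by far less than from either A7 library. On an estimated 281 and 293 fragments with vehicle, counting error alone allows a wider gap. The closeness of these 2 values is thus no measure of the spread between libraries. The fold was 1.22 lower with A7, a log2 difference of -0.29 (SE 0.119). SNAR-H had 57928 and 71846 with vehicle and 57178 and 46328 with A7. The higher A7 value of SNAR-H lay just under the lower vehicle value, and the difference was -0.33 (SE 0.170). With quantile normalisation, which gives the same rank the same value, SNAR-H turned to 0.32, since its rank went from 4 in both vehicle libraries to 3 in both A7 libraries, and SNAR-B2, with an unchanged rank, was at 0. Rescaled to TPM, SNAR-B2 was at -0.06 and SNAR-H at -0.10, so the differences of both depend on the scaling.

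SNAR-C3 had 32030 and 40217 scaled FPKM with vehicle and 26793 and 21146 with A7. Both A7 libraries lay below both vehicle libraries, with means of 36123 ± 5789 and 23969 ± 3993, 1.51-fold lower with A7 (log2 difference -0.59, SE 0.177, 95% interval -1.03 to -0.16). SNAR-C4 had 23083 and 29649 with vehicle and 17096 and 20689 with A7, 1.40-fold lower (log2 difference -0.48, SE 0.173). The groups of SNAR-C4 did not overlap either. With TPM the differences were -0.37 for SNAR-C3 and -0.25 for SNAR-C4, and with quantile normalisation -0.15 and -0.14. By estimated fragments, the A7-to-vehicle ratios were 0.812 for SNAR-B2, 0.802 for SNAR-H, 0.664 for SNAR-C3 and 0.702 for SNAR-C4, each with a counting interval whose upper bound was 0.911 or less.

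Among the less abundant members, SNAR-E had the lowest p-value of the family. It had 5817 and 4087 scaled FPKM with vehicle and 2187 and 2545 with A7. The 4 values formed separate groups, and the mean with A7 was 2.09-fold lower (4952 ± 1223 against 2366 ± 253, log2 difference -1.05, SE 0.195, 95% interval -1.53 to -0.57, limma unadjusted p = 0.0018, adjusted p = 0.487). SNAR-E rested on an estimated 19 and 14 fragments with vehicle, against 13 and 12 with A7, a ratio per depth of 0.478 with a counting interval from 0.272 to 0.829.

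SNAR-A2 had 2765 and 2832 scaled FPKM with vehicle and 2430 and 1915 with A7, without overlap (log2 difference -0.38, SE 0.148, but -0.15 with TPM and -0.20 without A7 replicate 2). It rested on an estimated 9 and 10 fragments with vehicle, against 14 and 9 with A7. The counting interval of its ratio per depth, 0.398 to 1.483, included equal levels. SNAR-A11 and the 4 members that share its values had 2317 and 2965 with vehicle and 2385 and 2006 with A7, and these groups overlapped (-0.26, SE 0.167, but -0.04 with TPM and -0.08 without vehicle replicate 2). Summed over its 8 members, the SNAR-A subfamily had 14836 and 17658 with vehicle and 14356 and 11944 with A7. The groups of that sum lay apart by a narrow margin, with a log2 difference of -0.31. The counting interval of the SNAR-A ratio per depth, 0.626 to 1.047, included equal levels. Vehicle replicate 1 included 488 from SNAR-A12 and SNAR-A13, which were above 0 in that library only. That amount is larger than the margin between 14836 and 14356, so the separation rests on these members.

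SNAR-G1 had 2227 and 2071 scaled FPKM with vehicle and 1232 and 1957 with A7, lower without overlap (log2 difference -0.47, SE 0.225, but -0.13 without A7 replicate 1 and -0.80 without A7 replicate 2). It rested on an estimated 7 and 7 fragments with vehicle, against 7 and 9 with A7. The counting interval of its ratio per depth, 0.330 to 1.595, included equal levels. SNAR-C1 and SNAR-C2 each had 1803 and 371 with vehicle and 1006 and 1262 with A7. This pair was the exception in direction: the vehicle libraries spanned the A7 libraries, the log2 difference was 0.46 (SE 0.680, adjusted p = 0.913), and without vehicle replicate 2 it was -0.67. SNAR-I had 595 and 1580 with vehicle and 744 and 418 with A7, which overlapped (-0.80, SE 0.489, from -1.5 without vehicle replicate 1 to -0.09 without vehicle replicate 2).

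The remaining members fell outside the rule for named genes and are named after their values were seen. SNAR-F had 609.95 and 624 scaled FPKM with vehicle and 169 and 421 with A7 (log2 difference -1.21, SE 0.399, from -1.86 without A7 replicate 2 to -0.55 without A7 replicate 1), a difference carried by an estimated 2 and 2 fragments against 1 and 2. SNAR-D was above 0 in vehicle replicate 2 only (328 scaled FPKM), and SNAR-A12 and SNAR-A13 in vehicle replicate 1 only (244 each). These 3 passed the minimum mean of 1 through 1 vehicle library.

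**Figure D3:**
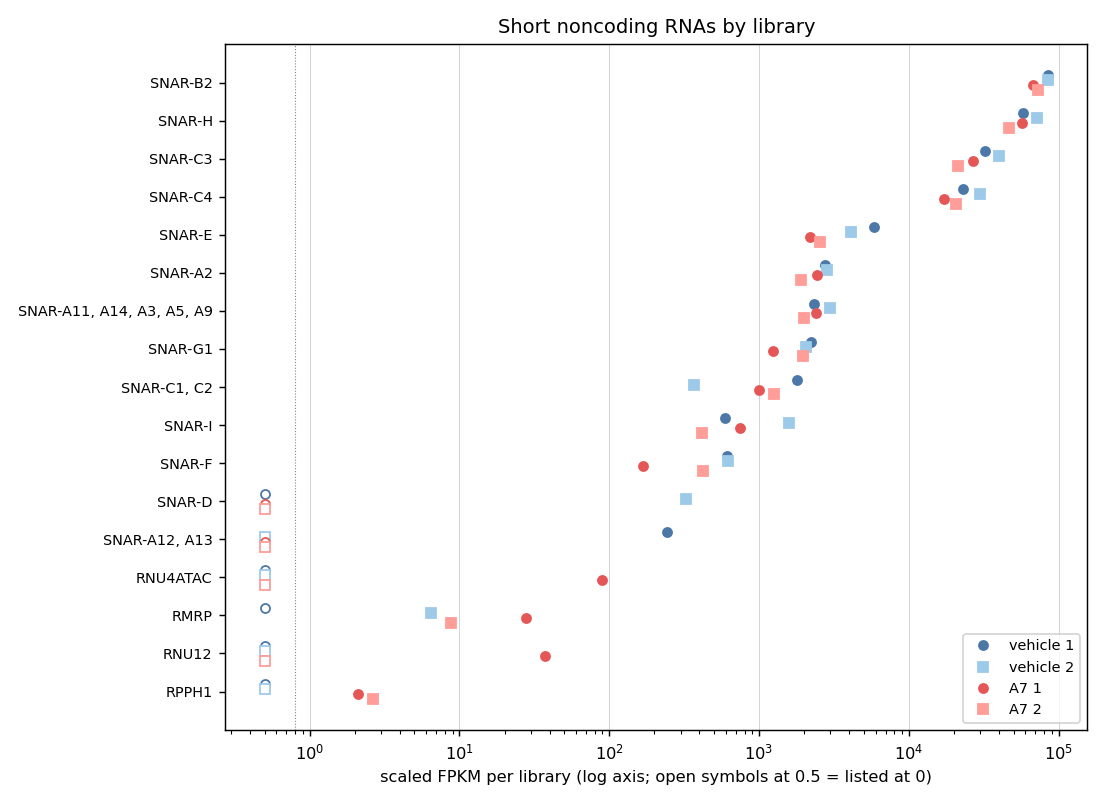
Scaled FPKM of the SNAR members and of RMRP, RPPH1, RNU12 and RNU4ATAC in each of the 4 libraries on a logarithmic axis, vehicle and A7 as separate symbols, with members of identical values drawn once. The A7 points of SNAR-E lie below its vehicle points, and those of SNAR-C1 and SNAR-C2 lie between their vehicle points. RMRP, RPPH1, RNU12 and RNU4ATAC stand below every SNAR value above 0, the nearest being RNU4ATAC at 90.0 and SNAR-F at 169 in A7 replicate 1.

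None of the 19 SNAR members tested passed the threshold of an adjusted p under 0.05 in the limma fit over all 8952 genes with a mean FPKM of at least 1. In that fit 2 genes passed (0.0223%), 1 lower (0.0112%) and 1 higher (0.0112%). At an unadjusted p under 0.05, 5 of the 16 SNAR members above 0 in every library were lower (SNAR-C3, SNAR-C4, SNAR-E, SNAR-A2 and SNAR-F) and 0 higher, beside 3.55% of all tested genes lower and 2.21% higher. The smallest adjusted p of the family was 0.487, for SNAR-E, and the others were at 0.806 or above. The groups did not overlap for 8 of these 16, all lower with A7, beside 18.6% of all tested genes. Lower mean log2 values with A7 were found for 14 of the 16, and for 10 of 11 once each set of identical values was counted once, beside 50.3% of all tested genes (49.7% had higher ones). The median log2 difference was -0.31 over the 16 members and -0.47 over the 11 sets. SNAR-D, SNAR-A12 and SNAR-A13, which are 0 in both A7 libraries and could only come out lower, are left out of these counts. Because the members share reads, arrays and libraries, these counts describe 1 family and are not independent.

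Other highly abundant genes were lower with A7 too. Of 155 tested genes outside these families whose mean FPKM was at least 1000, 141 had a lower and 14 a higher mean, and 94 were lower without overlap. Their median log2 difference was -0.18, against -0.31 for the 16 SNAR members above 0 in every library. Of these 16, 14 had a lower mean and 8 were lower without overlap. With each set of identical values counted once, these were 10 and 8 of 11. The 16 included SNAR-I and SNAR-F, whose mean FPKM of 841 and 460 lay under the minimum of 1000. Among 35 tested genes outside the families whose GENCODE 29 transcripts are all under 200 nt, 20 had a higher and 15 a lower mean, and the median was 1.02. Only 3 were higher and 2 lower without overlap, beside 18.3% and 18.6% of all tested genes. This set was not limited to genes above 0 in every library. A gene above 0 in only 1 group has a fixed direction, so the median is not comparable with that of the 16 SNAR members. The part of abundance and of transcript length in the SNAR difference was not tested.

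**Figure D4:**
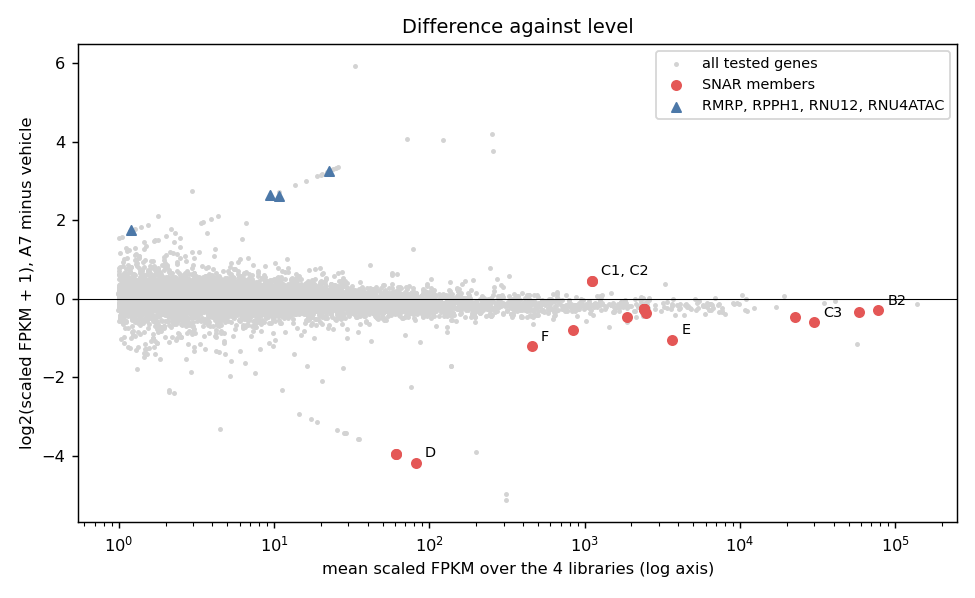
Difference in log2(scaled FPKM + 1), A7 minus vehicle, of every tested gene against its mean scaled FPKM over the libraries on a logarithmic axis. SNAR members and the other short RNAs are coloured points. SNAR members with a mean of 1000 or more lie mostly below 0, where most abundant genes also lie, and RMRP, RPPH1, RNU12 and RNU4ATAC lie above 0 at low levels.

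Of the 36 members outside the SNAR family, 32 were listed at 0 in all 4 libraries, among them all 20 U6 symbols, the 4 vault RNAs, the 3 U5 symbols and both Y RNAs. The cDNA kit primes from poly(A) tails, per its design, which most of these RNAs lack, and its part in these zeros was not tested. The 4 members above 0 were RMRP, RPPH1, RNU12 and RNU4ATAC, the RNAs of RNase MRP, RNase P and the minor spliceosome. The sequences of the 3 shorter ones are shown from GENCODE 29, 5′ to 3′, with the longest run of A (the first where several are as long) in capitals, because a run of A is what an oligo(dT) primer could anneal to.
RNU12: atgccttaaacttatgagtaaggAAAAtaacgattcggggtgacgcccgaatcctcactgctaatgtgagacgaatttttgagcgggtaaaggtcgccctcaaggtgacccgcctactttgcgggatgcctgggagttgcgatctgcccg
RNU4ATAC: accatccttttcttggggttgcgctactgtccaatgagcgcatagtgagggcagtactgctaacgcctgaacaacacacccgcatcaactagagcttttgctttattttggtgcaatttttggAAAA
RMRP: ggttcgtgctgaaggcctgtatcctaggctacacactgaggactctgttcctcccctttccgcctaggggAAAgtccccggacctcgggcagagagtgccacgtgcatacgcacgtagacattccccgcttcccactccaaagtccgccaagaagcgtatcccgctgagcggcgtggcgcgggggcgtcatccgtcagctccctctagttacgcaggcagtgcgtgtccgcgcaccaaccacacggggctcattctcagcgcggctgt
The longest A run was 4 bases in RNU12 and RNU4ATAC, 3 in RMRP and 2 in RPPH1, and in RNU4ATAC it forms the 3′ end.

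GENCODE 29 held a transcript for 14 of the 56 members by symbol and for 0 of the 20 SNAR members. The 10 that were listed at 0 had a median length of 116.5 nt (89 to 134) and longest A runs of 2 to 5 bases (median 3). The 4 above 0 had a median length of 209 nt (127 to 333) and longest A runs of 2 to 4 bases (median 3.5). The members above 0 were thus mostly longer, with A runs of much the same length, which is a description of 4 against 10 sequences.

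RMRP had 0 and 6.42 scaled FPKM with vehicle, against 27.9 and 8.81 with A7. Both A7 libraries lay above both vehicle libraries, by an estimated 7 and 2 fragments against 0 and 1. The log2 difference was 2.63 (SE 0.971, limma unadjusted p = 0.0359, adjusted p = 0.806), and the A7-to-vehicle ratio of fragments per depth was 5.68 with a counting interval from 0.787 to 249. These fragment numbers take the smallest value of RMRP as 1 fragment, and the interval depends on that choice. The A7 values lay at 7.49 and 1.87 times that value, so the numbers are rough. The log2 difference was 1.18 without vehicle replicate 1 and 4.08 without vehicle replicate 2.

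RPPH1 was listed at 0 in vehicle replicates 1 and 2, while the A7 libraries had 2.11 and 2.64 scaled FPKM, which corresponded to an estimated single fragment in each A7 library. Its log2 difference on the scale of log2(scaled FPKM + 1) was 1.75 (SE 0.237), with a limma unadjusted p of 0.000341 and an adjusted p of 0.277. With estimates of 0 fragments against 2, the difference was not resolvable at this depth. RNU12 and RNU4ATAC were above 0 in A7 replicate 1 only, at 37.5 and 90.0 scaled FPKM, each an estimated 1 fragment, in the library with the greatest depth. RPPH1, RNU12 and RNU4ATAC were tested only because of their A7 values, so their direction was fixed by the minimum mean and no count is read from them. RMRP alone of the 4 was above 0 in a vehicle library, and 18.3% of all tested genes were higher without overlap.

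Genes of the proteins that make or bind these RNAs showed no call. Of 99 genes in 11 lists, 87 were tested and 0 had an adjusted p under 0.05 (limma, smallest 0.667), while 7 had an unadjusted p under 0.05, beside 5.76% of all tested genes. Here and below, lower and higher refer to the mean of log2(scaled FPKM + 1), which was lower for 58 genes and higher for 29, beside 50.3% and 49.7% of all tested genes. The groups did not overlap for 27 lower and 9 higher genes, beside 18.6% and 18.3% of all tested genes, and these shares are the background for every list that follows. The median log2 difference was -0.09, beside -0.00186 for all tested genes.

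ILF2, which encodes a subunit of a complex that binds double-stranded RNA, had 192 and 199.9 scaled FPKM with vehicle and 120.5 and 165 with A7. Both A7 libraries lay lower, with a log2 difference of -0.47 (SE 0.177, adjusted p = 0.806), which was -0.25 with TPM and -0.245 without A7 replicate 1.

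The 18 subunits of RNA polymerase III, all tested, had lower mean log2 values with A7 in 12 cases and higher ones in 6, with 7 lower and 2 higher without overlap (18.6% and 18.3% of all tested genes) and a median log2 difference of -0.17. POLR3K, a subunit specific to this polymerase, had 369 and 404 scaled FPKM with vehicle and 299.0 and 298.7 with A7 (log2 difference -0.37, SE 0.120). POLR1C, shared with RNA polymerase I, had 151 and 179 with vehicle and 98.4 and 129 with A7 (-0.54, SE 0.179). POLR2E, shared by all 3 nuclear polymerases, went the other way, from 1.13 and 1.15 to 1.93 and 2.18 (0.51, SE 0.208). None of these differences had an adjusted p under 0.806. Of the initiation factors and regulators, 14 of 19 were tested, with 10 lower and 4 higher means and a median of -0.09. GTF3A, which starts 5S RNA genes, GTF3C6, a subunit of TFIIIC, and TBP, which all 3 polymerases use, had differences of -0.31, -0.19 and -0.28, each lower without overlap.

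The 10 protein genes of RNase P and RNase MRP, which bind RPPH1 and RMRP, were lower in 8 cases, 6 without overlap (18.6% of all tested genes), and higher in 2, with a median log2 difference of -0.19. POP5, a subunit of both enzymes, had 223 and 249 scaled FPKM with vehicle and 146 and 165 with A7 (236 ± 17.99 against 156 ± 13.2, -0.60, SE 0.135, limma unadjusted p = 0.00455, adjusted p = 0.667). RPP40 had 51.8 and 58.9 with vehicle and 37.4 and 39.2 with A7 (-0.52, SE 0.141). RPP25, at 4.59 and 5.97 against 4.28 and 2.44, also did not overlap (-0.55, SE 0.265). Most of these protein genes lay lower while RMRP lay higher on its few fragments, and neither direction passed the adjusted threshold. With TPM the median of the protein genes was 0.03. RPPH1 is left out of this comparison, since its direction was fixed by the minimum mean.

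Of the 12 genes for the Sm core and the U1 and U2 proteins, 11 had lower means and 8 did not overlap, beside 18.6% of all tested genes (median -0.20). Examples were the Sm proteins SNRPD2 (2558 and 2976 scaled FPKM against 2465 and 2232), SNRPG (1848 and 2197 against 1821 and 1612) and SNRPD3 (254 and 266 against 213 and 239). The 7 genes of U11/U12 proteins, which work with U12 RNA, had 5 higher and 2 lower means, 4 higher without overlap (18.3% of all tested genes), and a median of 0.07. ZMAT5 had 1.32 and 2.00 with vehicle and 2.86 and 3.55 with A7 (0.67, SE 0.229), RNPC3 differed by 0.19 and PDCD7 by -0.17.

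The other lists were small or spread about 0. Of the 7SK partners, proteins that bind 7SK RNA and the kinase P-TEFb that it holds inactive, 5 of 6 tested had higher mean log2 values (median 0.18), although CCNT1 among them had means of 6.13 and 6.12 scaled FPKM. LARP7 had 30.3 and 34.1 scaled FPKM with vehicle and 36.1 and 38.2 with A7 (0.20), MEPCE differed by 0.29 and CDK9 by 0.28. Of the 6 proteins of the signal recognition particle, 4 had lower means with no gene free of overlap (median -0.05; SRP19 -0.12, SRP68 0.15, SRP72 -0.11). The Ro60 gene TROVE2 differed by -0.09 and the La gene SSB, whose product binds new RNA polymerase III transcripts, by -0.14. Of the vault proteins only PARP4 was tested (0.20). Of 10 tested Integrator subunits, which process U RNAs, 7 had lower means (median -0.06; INTS10 -0.27, INTS12 -0.21, ASUN -0.22). After rescaling to TPM, the medians of the polymerase subunits, the initiation factors, the RNase P and MRP proteins, the Sm core, the signal recognition particle and Integrator were positive (0.05, 0.10, 0.03, 0.03, 0.17 and 0.14), all at or under the shift of 0.17 of all tested genes, so the direction of these lists depends on the scaling. Without vehicle replicate 2 the medians of the initiation factors, Integrator and the signal recognition particle also turned, to 0.0165, 0.0116 and 0.00371. That of Integrator was 0.0221 without A7 replicate 1, and that of the signal recognition particle 0.0766 with quantile normalisation.

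**Figure D5:**
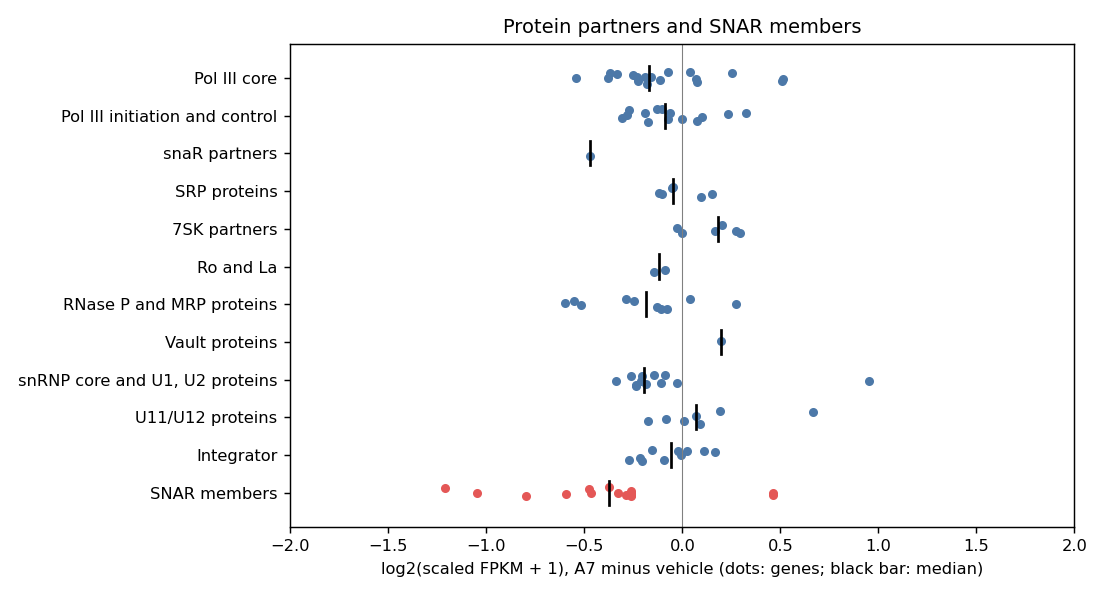
Log2 difference (A7 minus vehicle) of each tested gene in the 11 partner lists and of the SNAR members, one row per list, with a mark at each list's median; the axis runs from -2 to 2, so SNAR-A12, SNAR-A13 and SNAR-D lie outside it. The median of the 19 SNAR members tested, -0.38 (-0.31 over the 16 above 0 in every library), is lower than the median of every list except that of the single gene ILF2 (-0.47), while the 7SK partners (0.18), the single vault protein PARP4 (0.20) and the U11/U12 proteins (0.07) lie above 0.

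The 5 tested genes outside the families whose centred log2(scaled FPKM + 1) values lay closest to those of the SNAR sum over the 4 libraries were SLC29A1 (Euclidean distance 0.017), which encodes a nucleoside transporter, PPP4R2 (0.022), NBR2 (0.051), POLR3K (0.052) and MRPL21 (0.060). The SNAR sum itself lay at 0.10 and 0.27 with vehicle and at -0.16 and -0.22 with A7 around its mean. SLC29A1 had 16.6 and 18.7 scaled FPKM with vehicle and 13.6 and 13.1 with A7. The distances over 4 libraries are a description only.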

How the data were processed

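RNA sequencing of 4 LCC9 libraries (2 vehicle, 2 A7) was analysed from the authors' deposited tables of gene symbols and FPKM. Per the labels' protocols, cDNA was made with a SMARTer PCR kit, whose primer anneals to poly(A). The submitters' processing notes list CASAVA 1.8.2, TopHat, Cufflinks 2.2.1 and GRCh37. For the annotation, the handling of multi-mapped reads and any length correction, the method is not given in the sources used here. Of 23619 lines, 14 whose symbol was a number (at most 0.00539% of summed FPKM) were left out. Count models were not used, since FPKM are no counts.

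Libraries were divided by their median ratio to the geometric mean library. All 8952 genes whose mean FPKM reached 1 entered a limma 3.58.1 fit (R 4.3.3) on log2(scaled FPKM + 1), two-sided, with a variance trend and Benjamini-Hochberg adjustment over all of them, at a threshold of 0.05. Differences on this scale understate changes of low genes. The fit had 2 residual and 3.89 prior degrees of freedom. On simulated data (8952 genes, 200 changed, 20 simulations) 36.3% of the 2-fold, 95.1% of the 4-fold and 99% of the 8-fold changes were found, while 5.22% of its calls were false. The changed genes were drawn from those with a mean log2(scaled FPKM + 1) above 2, so lower genes such as RPPH1 were not covered. Changes under 2-fold, such as that of the SNAR sum, were not simulated. Family sums were compared by exact permutation. Relative depth was read from the lowest mode of FPKM times length over 138 to 310 low genes per library with GENCODE 29 transcripts of at least 600 nt, and gave roughly 2237563, 2310056, 4075362 and 3133833 fragments. Estimated fragments of a member are its FPKM times relative depth, divided by the value taken as 1 fragment, a choice made after seeing the data; intervals are 95% exact binomial and cover counting error only.

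Named were the 15 SNAR members of highest mean, other members with a mean of 1 or more, up to 3 genes per partner list by smallest p, ILF2, and the 5 genes most like the SNAR sum. The lists hold RNA polymerase III subunits and initiation factors, the snaR partner ILF2, signal recognition particle, 7SK, Ro and La, RNase P and MRP, vault, Sm core, U11/U12 and Integrator genes, and markers of luminal, fibroblast, leukocyte, endothelial (summed to at most 0.0961) and basal cells (KRT5 and KRT14 at 0, ACTA2 between 11.1 and 14.6). Members and lists were chosen with earlier results of these data known, and 1 listed gene is not reported here. Other pseudocounts, filters, scalings, a replicate block and leaving out each library were tried. Same-numbered libraries did not deviate together (correlation 0.0906), so the numbers were not used as pairs.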

Additional observations from a re-analysis of the deposited data

How the results depend on the processing

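The lower SNAR sum with A7 kept its direction under every alternative run on the sum, which did not include quantile normalisation. Its log2 difference was -0.381 unscaled and -0.427 without the most abundant member. As the median over members it was -0.375 (-0.307 over the 16 above 0 in every library). The replicate block gave -0.375, which repeats the main value by construction. With 1 library left out the log2 difference of the sum lay between -0.459 and -0.291. After rescaling to TPM it was -0.151. Chosen after seeing the data, the sum without the 4 most abundant members gave -0.436, and the estimated fragments per depth -0.38, which repeats the unscaled value by construction. The share of summed FPKM differed by -1.71 points, by -1.9 to -1.53 with 1 library left out and by -0.559 without the 10 most abundant genes. Over all tested genes, 1 was called higher and 1 lower. The higher count was 0 with a pseudocount of 10, with no filter, with no variance trend and with the replicate block, and ranged from 0 to 10 with 1 library left out. The lower count was 0 with a pseudocount of 0.1 or 10, with no filter and with the replicate block, 2 with TPM and with quantile normalisation, and 0 to 7 with 1 library left out. The replicate block changed no call of a short noncoding RNA or partner gene; the numbers pair nothing by the labels. Short noncoding RNAs called numbered 0 in each direction, and 0 to 2 with 1 library left out: RNU12 and RNU4ATAC higher without A7 replicate 2, SNAR-D lower without vehicle replicate 1, SNAR-A12 and SNAR-A13 lower without vehicle replicate 2. In each case the lone library of a group held the only value above 0 and was assumed to vary like the other group. Signs turned with TPM for GTF3C6 (0.0307), INTS12 (0.0141), PDCD7 (0.0229), SNRPD3 (0.0184), SRP19 (0.105), SRP72 (0.108), SSB (0.0775) and TROVE2 (0.129), and with quantile normalisation for SNAR-H (0.315; SNAR-B2 was at 0), SRP19 (0.016) and TROVE2 (0.0146). They turned without vehicle replicate 1 for PARP4 (-0.0115, up to 0.406 with another library left out) and PDCD7 (0.0353). Without vehicle replicate 2 they turned for SNAR-C1 and SNAR-C2 (-0.673), INTS12 (0.0212), MEPCE (-0.23), SRP68 (-0.0755), SRP72 (0.00345) and SSB (0.00305), and without A7 replicate 1 for SRP68 (-0.0895). The other ends of these ranges were 1.6 for SNAR-C1 and SNAR-C2, -0.429 for INTS12, 0.817 for MEPCE, 0.403 for SRP68, -0.212 for SRP72 and -0.289 for SSB. Where no value above gives a cause, the cause was not tested. Depth limits RMRP, RPPH1, RNU12, RNU4ATAC, SNAR-D, SNAR-F and SNAR-I, which rest on 13 or fewer estimated fragments each. It also limits SNAR-A2 and SNAR-G1, whose counting intervals, on an estimated 42 and 30 fragments, included equal levels.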
